A study of Mus musculus with 8 samples.

Results

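The genes described here carry out or switch on fatty acid burning in the liver. They are 38 genes of mitochondrial and peroxisomal fatty acid oxidation, the carnitine shuttle, ketone body synthesis and other targets of the nuclear receptor PPARA, chosen by symbol from a list, out of 23337 gene symbols in the count files. All 38 were present in every file and all 38 passed the filter on low counts, which kept 14328 genes. By role they comprised 1 transcription factor, 5 genes of fatty acid binding, lipid droplet coating and activation, 4 of the carnitine shuttle, 5 acyl-CoA dehydrogenases, 5 genes of the later mitochondrial steps, 3 of electron transfer, 2 of ketone body metabolism, 9 of the peroxisome and 4 other PPARA targets.

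Liver RNA came from C57BL/6 mice aged 12 weeks, either wild-type (WT) or lacking HRD1 in hepatocytes (HRD1Alb, genotype label Hrd1-/-). HRD1, encoded by Syvn1, is a ubiquitin ligase of the endoplasmic reticulum, and the study asked how its loss changes the liver transcriptome before and after a meal. Each genotype was sampled fasted, after an overnight fast, or refed, after the fast and 4 h of food, with 2 samples in each of the 4 groups. In HRD1Alb mice the floxed gene was removed by Cre under the albumin promoter, which the paper describes as acting from early liver development. HRD1 levels in the other liver cell types are not given in the sources used here. The sources used here do not say how many animals each sample holds, so p-values measure the spread between these samples, which may be technical. That spread was estimated for each gene over all 4 groups together, so it is not that of the groups compared alone.

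Total counts ranged from 40210576 to 49117080 per library, and 3 counts were worth 0.0508 to 0.0788 normalized CPM (counts scaled to the normalized library size). The pair of refed HRD1Alb libraries stood apart from each other. There, 3204 genes lay at least 2-fold apart, against 424 to 1141 in the other 3 groups, and replicate 2 held more counts of short genes and fewer of long genes (Spearman's rho = -0.58 over 12968 genes, a description). Members and other pathway genes past the threshold on refed HRD1Alb liver are therefore also given without each of these libraries. Syvn1, the deleted gene, had 111 and 99.8 CPM in fasted WT liver and 32.6 and 31.5 CPM in fasted HRD1Alb liver. In refed liver it had 637 and 305 CPM in the libraries labelled WT and 453 and 132 CPM in those labelled HRD1Alb, so the refed groups overlapped and the whole-gene count did not separate their labels. The summed level of 9 hepatocyte markers was 139516 and 153249.8 CPM in fasted WT, 89012.6 and 89755 CPM in fasted HRD1Alb, 114220.1 and 121313 CPM in refed WT and 64807 and 104409.5 CPM in refed HRD1Alb libraries. In bulk liver, fewer cells of a type and less RNA per cell cannot be told apart.

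Fatty acids reach the mitochondrial matrix as acyl-carnitines, made by CPT1A on the outer membrane, and are then shortened by repeated rounds of dehydrogenation, hydration, a second oxidation and thiolysis. Very long and branched chains are first shortened in the peroxisome. In a fasted liver, PPARA, a nuclear receptor that binds fatty acids, turns on many of these genes, and much of the acetyl-CoA produced is exported as ketone bodies. After a meal, insulin and malonyl-CoA turn the pathway down.

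In fasted WT liver the levels per kilobase of exon differed widely between the members. Fabp1, the cytosolic fatty acid binding protein of hepatocytes, had the highest level at 6968 CPM per kb (mean of 2 samples), followed by the peroxisomal bifunctional enzyme gene Ehhadh at 1570 CPM per kb, the peroxisomal thiolase gene Acaa1b at 1276 CPM per kb and the acyl-CoA synthetase gene Acsl1 at 1006 CPM per kb. Pdk4, Abcd2 and Ucp2 were the lowest, at 18.5, 8.04 and 7.0 CPM per kb. After refeeding, the mitochondrial carrier gene Slc25a47 moved from rank 7 to rank 27 in WT liver, and Plin2 from rank 6 to rank 12. Acaa1a and Acaa1b are near copies, with 96.6% identical bases over 1428 aligned transcript bases, so their counts may be shared between them. The exons of 10 members overlap exons of another annotated gene, among them Acad11, Crat, Hadha, Bdh1 and Ucp2, and whether the counting used strand is not given in the sources used here.

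**Figure D1:**
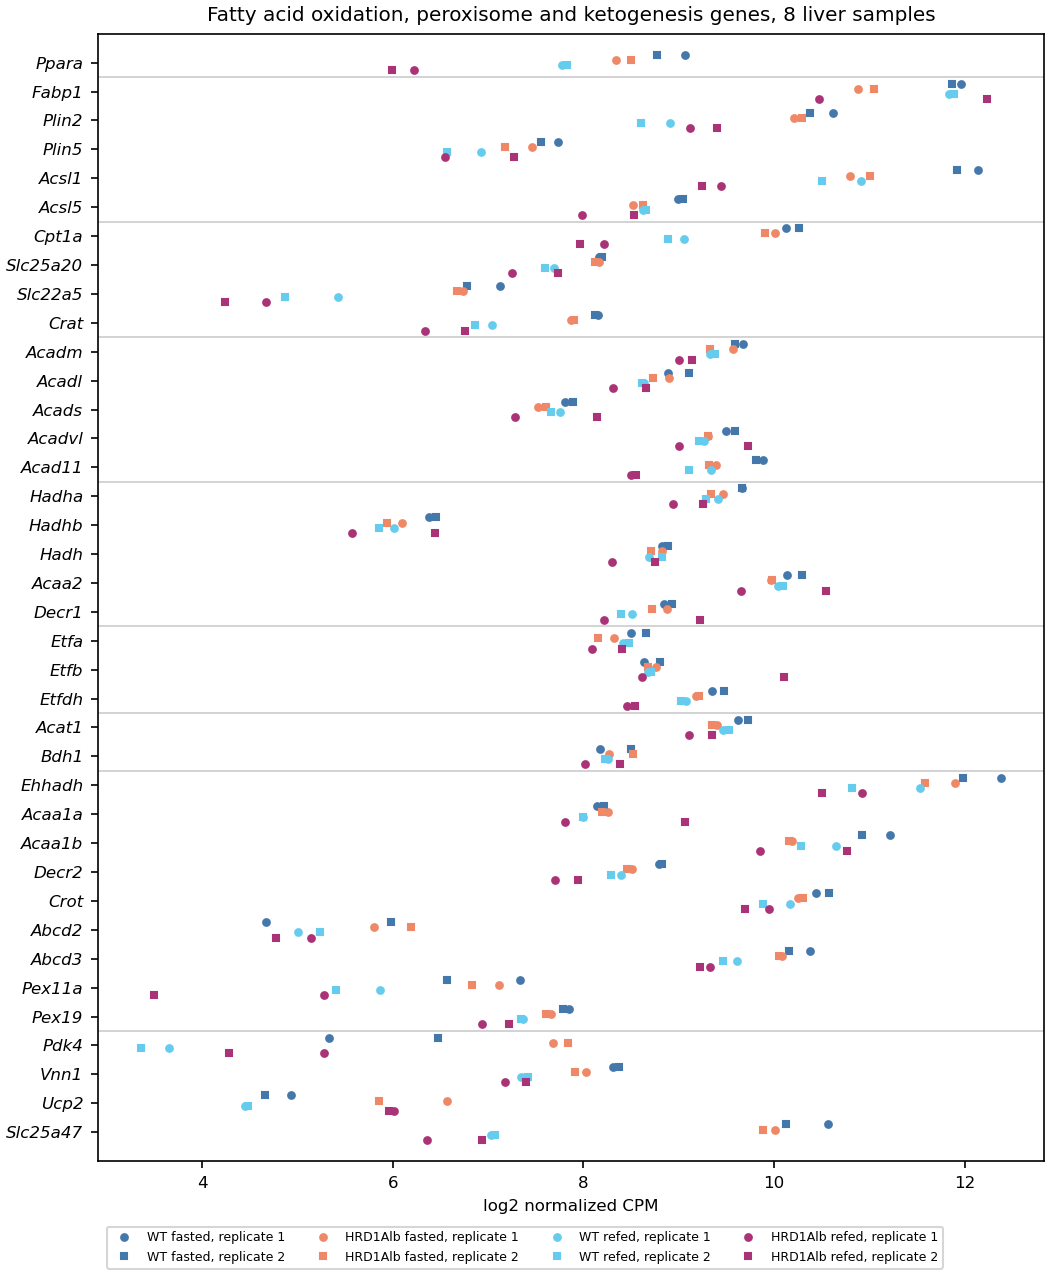
Log2 normalized CPM of the 38 genes in all 8 samples, with circles for replicate 1, squares for replicate 2 and colours for the 4 groups. Grey lines part the roles. Slc25a47, Slc22a5, Ppara and Pdk4 show wide gaps between fasted and refed samples, and in refed HRD1Alb liver the replicates of Fabp1, Etfb and Acaa1a lie far apart.

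Refeeding lowered the gene that heads the programme, the entry step into mitochondria and several PPARA targets in both genotypes, while few enzymes of the mitochondrial spiral passed the test. In WT liver 9 of 38 members fell (edgeR quasi-likelihood test, Benjamini-Hochberg adjusted p below 0.05) and 0 rose, with 0 in that direction at an unadjusted p below 0.05 and 0 by DESeq2 or limma-voom. Among all tested genes 1.32% fell and 1.09% rose. All 38 members had a negative log2 fold change in WT, with a median of -0.46 against 0.00132 over all tested genes. In HRD1Alb liver 14 members fell and 0 rose, again with 0 at an unadjusted p below 0.05 and 0 by DESeq2 or limma-voom, where 4.82% of all tested genes fell and 5.14% rose. The median of the members was -0.42 there against 0.02 over all tested genes.

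The libraries of WT and HRD1Alb liver are separate, but all were fitted together with a shared estimate of spread for each gene. The refeeding lists are therefore not independent and are only set side by side. All 9 members that fell in WT liver also fell in HRD1Alb liver, which is 100% of the WT list and 64.3% of the HRD1Alb list. Over all tested genes, 149 of the 189 genes that fell in WT also fell in HRD1Alb liver, 78.8% of the WT list and 21.6% of the HRD1Alb list of 691. In 33 of 38 members both refed WT samples lay below both fasted WT samples, a pattern held by 29.6% of all tested genes. The same held in HRD1Alb liver for 23 members, against 29.5% of all tested genes.

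**Figure D2:**
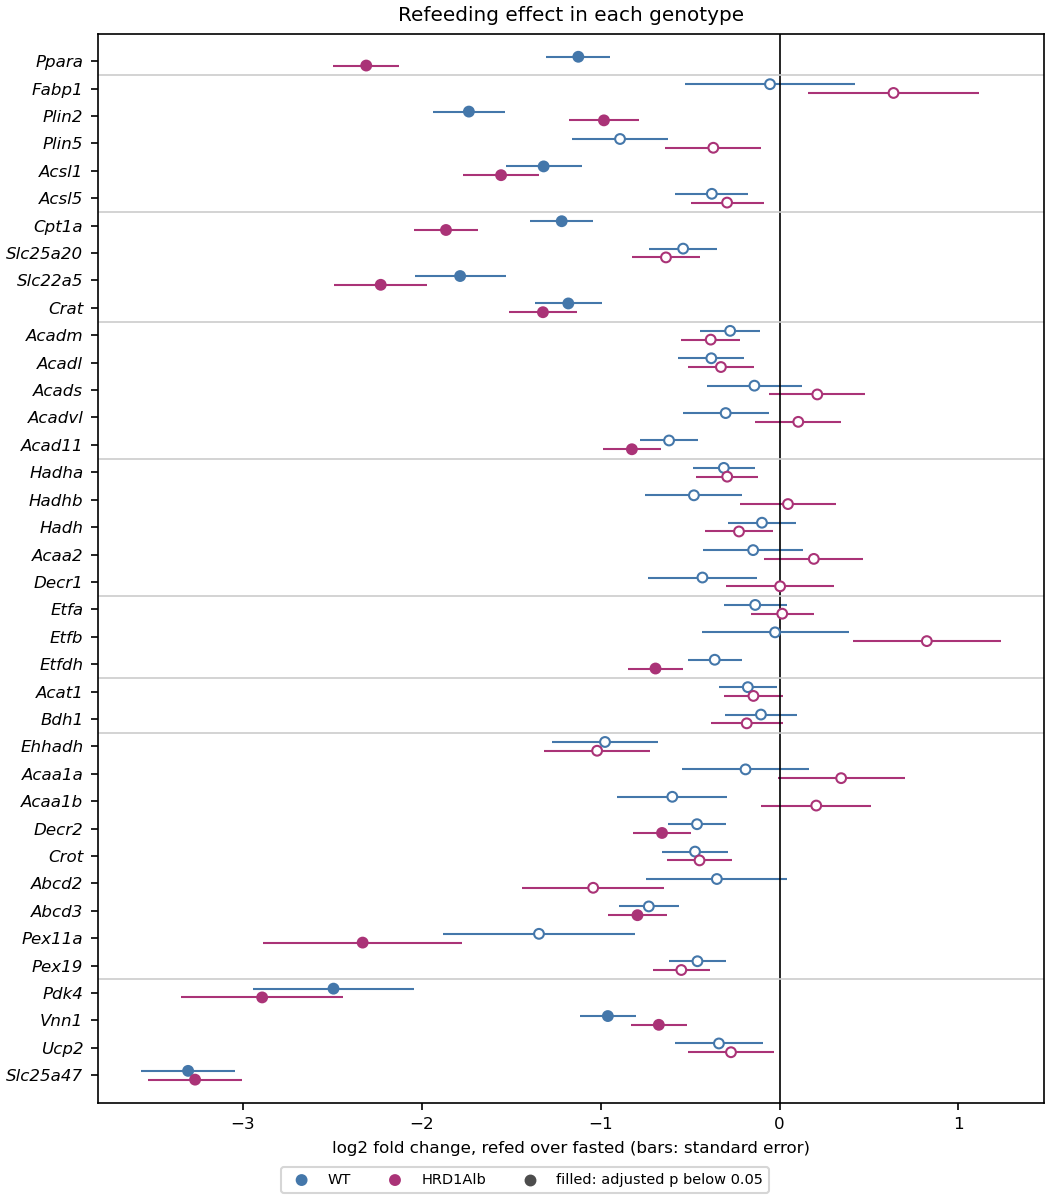
Log2 fold change of refed over fasted liver for each gene in WT and HRD1Alb mice, with bars for the standard error and filled points for an adjusted p below 0.05. Every WT point lies left of 0, from -0.02 (Etfb) to -3.31 (Slc25a47), and 9 WT and 14 HRD1Alb points are filled.

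Ppara (chr15:85734983-85802819, plus strand, GRCm38), the receptor gene itself, had 537 and 436 CPM in fasted WT, 219.5 and 227 CPM in refed WT, 325 and 361 CPM in fasted HRD1Alb and 74.6 and 63.7 CPM in refed HRD1Alb samples. The groups did not overlap in either genotype, and refed HRD1Alb liver held the lowest values. The log2 fold change on refeeding was -1.12 ± 0.18 (SE, adjusted p = 0.0344) in WT and -2.31 ± 0.19 (adjusted p = 0.00392) in HRD1Alb liver by edgeR. Without refed HRD1Alb replicate 1 the second value was -2.43, and without replicate 2 it was -2.20.

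Slc25a47, which encodes a mitochondrial inner membrane carrier found mainly in liver, had the largest fall of the members in both genotypes. It had 1509 and 1115 CPM in fasted WT, 131 and 134 CPM in refed WT, 1027 and 944 CPM in fasted HRD1Alb and 82.0 and 123 CPM in refed HRD1Alb samples. Every refed sample lay below every fasted one. The log2 fold change was -3.31 ± 0.26 (adjusted p = 0.00711) in WT and -3.27 ± 0.26 (adjusted p = 0.00392) in HRD1Alb liver, which is 9.90-fold and 9.63-fold lower. Pdk4, the kinase that shuts pyruvate dehydrogenase when fat is burnt, had 40.3 and 88.7 CPM in fasted WT, 12.6 and 10.3 CPM in refed WT, 205.5 and 229 CPM in fasted HRD1Alb and 38.9 and 19.5 CPM in refed HRD1Alb samples. Refed samples were lower than fasted samples within each genotype, and fasted HRD1Alb liver was the highest group. Its log2 fold change was -2.49 ± 0.45 (adjusted p = 0.0416) in WT and -2.89 ± 0.45 (adjusted p = 0.0147) in HRD1Alb liver.

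Vnn1, a pantetheinase gene used as a readout of PPARA, had 317 and 331 CPM in fasted WT, 162 and 171 CPM in refed WT, 261 and 240.2 CPM in fasted HRD1Alb and 145 and 168.5 CPM in refed HRD1Alb samples. It fell by 0.96 on the log2 scale in WT (adjusted p = 0.0361) and by 0.67 in HRD1Alb liver (adjusted p = 0.0398). Ucp2, a mitochondrial carrier of the uncoupling protein family, did not pass the test on refeeding, at -0.34 in WT and -0.27 in HRD1Alb liver.

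Among the genes of droplets, binding and activation, 2 of 5 fell in each genotype. Plin2, which coats lipid droplets and follows their amount, had 1571 and 1333 CPM in fasted WT, 481 and 390.1 CPM in refed WT, 1183 and 1250.5 CPM in fasted HRD1Alb and 557 and 675 CPM in refed HRD1Alb samples. The fed and fasted groups were apart in both genotypes, with log2 fold changes of -1.74 ± 0.20 (adjusted p = 0.0171) in WT and -0.98 ± 0.20 (adjusted p = 0.0275) in HRD1Alb liver. Plin2 is also made by fat cells. Of 5 white adipocyte markers, Adipoq, Plin1 and Lep were at most 0.0748 CPM in every library, while Cidec, a droplet protein that fatty hepatocytes make too, was at 16.9 to 163 CPM and Fabp4, a fatty acid binding protein also made by macrophages, at 5.28 to 25.9 CPM. Their sum was 133 to 170 CPM in fasted WT, 75.9 to 100.5 CPM in fasted HRD1Alb, 37.1 to 53.7 CPM in refed WT and 32.3 to 63.1 CPM in refed HRD1Alb libraries. Cidec was at -1.92 (adjusted p = 0.0586) in WT and -1.55 (adjusted p = 0.0505) in HRD1Alb liver on refeeding, and Fabp4 was higher in refed HRD1Alb than in refed WT liver by 1.55 (adjusted p = 0.027). Their part in the Plin2 result was not tested. Acsl1, the main long-chain acyl-CoA synthetase of liver, had 4515 and 3879 CPM in fasted WT, 1919 and 1446 CPM in refed WT, 1775 and 2058 CPM in fasted HRD1Alb and 697 and 606 CPM in refed HRD1Alb samples. Both genotypes showed a gap between feeding states, and fasted HRD1Alb liver was near refed WT liver. The fall on refeeding was 1.32 on the log2 scale in WT (adjusted p = 0.036) and 1.56 in HRD1Alb liver (adjusted p = 0.0103). Plin5, a droplet coat protein that tethers droplets to mitochondria, and Acsl5, another synthetase, did not pass, with -0.89 and -0.38 in WT.

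Fabp1 is shown with its sequence because it is the only member whose promoter window held the direct repeat searched for. Its counts were 3981 and 3726 CPM in fasted WT, 3639 and 3788 CPM in refed WT, 1887 and 2110 CPM in fasted HRD1Alb and 1422 and 4796 CPM in refed HRD1Alb samples. The WT groups overlapped, and the refed HRD1Alb samples lay on either side of every other sample. The log2 fold change on refeeding was -0.05 ± 0.48 in WT (adjusted p = 0.982) and 0.64 ± 0.48 in HRD1Alb liver (adjusted p = 0.384), and the latter was 1.26 without refed replicate 1 (adjusted p = 0.000219) and -0.49 without replicate 2 (adjusted p = 0.0595).

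PPARA binds DNA together with RXR at a direct repeat of a hexamer with 1 base between the copies. The RefSeq promoter table (GRCm38.p6, 250 bases before to 50 after each start, 300 in all) held windows for 31 of the 38 members. Genes were counted by symbol, with a match in any window of the symbol. The exact repeat AGGTCANAGGTCA, on either strand, was in 0 members and in 0.0481% of 27025 symbols. With the fourth base of each copy free (AGGNCANAGGNCA), a form that includes the exact one, it was in 1 member, Fabp1, and in 0.451% of symbols. The forkhead letters GTAAACA were in 0 members and in 4.05% of symbols. The windows of Fabp1 (chr6:71199629-71199928, plus strand) and of the 2 members with the largest falls on refeeding in WT, Slc25a47 (chr12:108850879-108851178, plus strand) and Pdk4 (chr6:5496229-5496528, minus strand), are printed 5′ to 3′, with the repeat in capitals. In Fabp1 it lies from -67 to -55 relative to the start and reads on the opposite strand.
Fabp1: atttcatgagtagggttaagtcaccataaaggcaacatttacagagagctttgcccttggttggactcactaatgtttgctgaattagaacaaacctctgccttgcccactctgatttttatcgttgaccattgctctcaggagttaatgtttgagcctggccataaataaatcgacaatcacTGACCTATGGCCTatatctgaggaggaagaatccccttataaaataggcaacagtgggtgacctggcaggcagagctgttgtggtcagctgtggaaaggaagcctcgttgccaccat
Slc25a47: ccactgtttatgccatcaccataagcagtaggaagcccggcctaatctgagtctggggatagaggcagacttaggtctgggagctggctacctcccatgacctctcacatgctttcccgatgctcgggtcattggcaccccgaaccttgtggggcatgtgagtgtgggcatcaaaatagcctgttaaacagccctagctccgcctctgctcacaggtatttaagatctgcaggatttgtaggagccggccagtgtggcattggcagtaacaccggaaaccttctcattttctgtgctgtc
Pdk4: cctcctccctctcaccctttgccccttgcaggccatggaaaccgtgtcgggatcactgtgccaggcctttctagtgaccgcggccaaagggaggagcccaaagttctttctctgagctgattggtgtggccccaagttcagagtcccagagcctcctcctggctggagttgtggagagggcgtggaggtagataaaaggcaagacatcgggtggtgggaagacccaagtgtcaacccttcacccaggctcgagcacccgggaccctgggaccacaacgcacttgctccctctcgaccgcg
The Slc25a47 window starts from the RefSeq start, which lies inside the longer gene of the GENCODE annotation (chr12:108836046-108856815). These letters are a description of the window and say nothing of binding.

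The carnitine shuttle held 3 of 4 in each genotype. Cpt1a (chr19:3322334-3385733, plus strand), the rate-setting acyltransferase of mitochondrial entry, had 1118 and 1224 CPM in fasted WT, 533 and 473.5 CPM in refed WT, 1033 and 958 CPM in fasted HRD1Alb and 296.5 and 250.3 CPM in refed HRD1Alb samples. No refed sample reached a fasted one, and refed HRD1Alb was the lowest group. The log2 fold change was -1.22 ± 0.17 (adjusted p = 0.0275) in WT and -1.86 ± 0.18 (adjusted p = 0.00435) in HRD1Alb liver.

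Slc22a5, the carnitine importer of the plasma membrane, had 139 and 109.6 CPM in fasted WT, 43.0 and 29.2 CPM in refed WT, 106 and 102 CPM in fasted HRD1Alb and 25.6 and 18.9 CPM in refed HRD1Alb samples. It fell by 1.79 on the log2 scale in WT (adjusted p = 0.0279) and by 2.23 in HRD1Alb liver (adjusted p = 0.00718). Crat, the carnitine acetyltransferase, had 285 and 278 CPM in fasted WT, 132 and 116.5 CPM in refed WT, 234 and 239.5 CPM in fasted HRD1Alb and 80.7 and 108.5 CPM in refed HRD1Alb samples, and fell by 1.18 in WT (adjusted p = 0.0344) and 1.32 in HRD1Alb liver (adjusted p = 0.0114). Both genes had separate fed and fasted groups in each genotype. Slc25a20, which carries acyl-carnitines across the inner membrane, did not pass, at -0.54 in WT and -0.64 in HRD1Alb liver (adjusted p = 0.0759).

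Of the 5 acyl-CoA dehydrogenase genes, which take the first oxidation of each round, 0 passed in WT and 1 in HRD1Alb liver. Acad11, which acts on long and very long acyl-CoAs, had 941 and 899 CPM in fasted WT, 647 and 552 CPM in refed WT, 668 and 639 CPM in fasted HRD1Alb and 362 and 376 CPM in refed HRD1Alb samples. Its groups were apart in both genotypes, with -0.62 (adjusted p = 0.111) in WT and -0.83 (adjusted p = 0.0261) in HRD1Alb liver. Acadm, the medium-chain enzyme, had 814 and 772 CPM in fasted WT, 643 and 667 CPM in refed WT, 761.5 and 642 CPM in fasted HRD1Alb and 512 and 563 CPM in refed HRD1Alb samples. Its changes of -0.28 (adjusted p = 0.495) and -0.38 (adjusted p = 0.163) did not pass. Acadl, Acads and Acadvl, the long, short and very long chain enzymes, ranged from -0.38 to -0.14 in WT and from -0.33 to 0.21 in HRD1Alb liver.

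Of the later mitochondrial genes, Hadha, Hadhb, Hadh, Acaa2 and Decr1, 0 of 5 passed in either genotype. Hadha, the larger subunit of the trifunctional protein, had 807 and 809 CPM in fasted WT, 679 and 623 CPM in refed WT, 703 and 646 CPM in fasted HRD1Alb and 492 and 609.5 CPM in refed HRD1Alb samples. Its values were lower after refeeding in both genotypes, by a log2 fold change of -0.31 in WT (adjusted p = 0.454) and -0.29 in HRD1Alb liver (adjusted p = 0.28). The other 4 ranged from -0.48 to -0.10 in WT and from -0.23 to 0.19 in HRD1Alb liver.

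In electron transfer, Etfdh, which hands electrons from the dehydrogenases to ubiquinone, had 653 and 711 CPM in fasted WT, 540 and 521 CPM in refed WT, 582 and 592 CPM in fasted HRD1Alb and 352 and 373 CPM in refed HRD1Alb samples. Its groups were apart in both genotypes, with -0.36 (adjusted p = 0.296) in WT and -0.69 (adjusted p = 0.0337) in HRD1Alb liver. Etfa and Etfb, the subunits of the electron transfer flavoprotein, did not pass, at -0.14 and -0.02 in WT and 0.02 and 0.82 in HRD1Alb liver. Acat1, the mitochondrial acetoacetyl-CoA thiolase, had 785 and 844 CPM in fasted WT, 704 and 737.5 CPM in refed WT, 678 and 653 CPM in fasted HRD1Alb and 552 and 651 CPM in refed HRD1Alb samples. Bdh1, which makes hydroxybutyrate, had 289 and 361 CPM in fasted WT, 306 and 299.6 CPM in refed WT, 309 and 366 CPM in fasted HRD1Alb and 259 and 335 CPM in refed HRD1Alb samples. For both, the change was between -0.10 and -0.18 in each genotype and did not pass.

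Among the 9 peroxisome genes, 0 passed in WT and 3 fell in HRD1Alb liver, while 6 in WT and 7 in HRD1Alb liver had an unadjusted p below 0.05. Of the 14328 tested genes, 2314 in WT and 4468 in HRD1Alb liver had such a p, in either direction. Decr2, the peroxisomal dienoyl-CoA reductase, had 442 and 454 CPM in fasted WT, 337 and 313 CPM in refed WT, 365 and 351 CPM in fasted HRD1Alb and 208 and 246 CPM in refed HRD1Alb samples. Abcd3, a transporter of acyl-CoAs into the peroxisome, had 1324 and 1143 CPM in fasted WT, 780.2 and 706 CPM in refed WT, 1086 and 1059 CPM in fasted HRD1Alb and 642 and 595 CPM in refed HRD1Alb samples. The feeding groups of both genes did not overlap. Decr2 changed by -0.46 (adjusted p = 0.213) in WT and -0.66 (adjusted p = 0.0449) in HRD1Alb liver, and Abcd3 by -0.73 (adjusted p = 0.0782) and -0.79 (adjusted p = 0.0305). Pex11a, a PPARA target that drives peroxisome division, had 161 and 94.7 CPM in fasted WT, 58.2 and 42.5 CPM in refed WT, 139 and 113.5 CPM in fasted HRD1Alb and 38.8 and 11.3 CPM in refed HRD1Alb samples.

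Refed HRD1Alb replicate 2 held the lowest Pex11a value of all, and replicate 1 was near the refed WT samples. The Pex11a change was -1.35 (adjusted p = 0.276) in WT and -2.33 ± 0.56 (adjusted p = 0.043) in HRD1Alb liver, where it was -3.48 without replicate 1 and -1.70 without replicate 2. Ehhadh, the bifunctional enzyme and a well-known PPARA target, had 5312 and 4047 CPM in fasted WT, 2953 and 1805 CPM in refed WT, 3802 and 3071 CPM in fasted HRD1Alb and 1937.5 and 1453 CPM in refed HRD1Alb samples. Refed samples were all lower, but the replicates were wide apart, and the change of -0.98 ± 0.30 in WT (adjusted p = 0.163) and -1.02 ± 0.30 in HRD1Alb liver (adjusted p = 0.0721) did not pass. Acaa1a, Acaa1b, Crot, Abcd2 and Pex19 did not pass either, with log2 fold changes between -0.60 and -0.19 in WT. In HRD1Alb liver these 5 ranged from -1.04 (Abcd2) to 0.34 (Acaa1a).

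The 14 members that fell in HRD1Alb liver are given here by size without each refed HRD1Alb replicate. Leaving out either one raised the calls over all tested genes, so that these calls were kept is no check on them. The calls of Abcd3, Acad11, Decr2, Etfdh, Pex11a, Plin2 and Vnn1 were lost when any fasted or refed WT library was left out. Besides Ppara and Pex11a, given above, the log2 fold change without replicate 1 and without replicate 2 was -3.01 and -3.59 for Slc25a47, -3.48 and -2.48 for Pdk4, -0.57 and -0.79 for Vnn1, -0.85 and -1.13 for Plin2 and -1.66 and -1.46 for Acsl1. In the carnitine shuttle it was -1.99 and -1.75 for Cpt1a, -2.47 and -2.03 for Slc22a5 and -1.13 and -1.55 for Crat. For the other 4 it was -0.80 and -0.85 for Acad11, -0.66 and -0.74 for Etfdh, -0.54 and -0.79 for Decr2 and -0.85 and -0.74 for Abcd3.

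The counts on refeeding moved with single libraries, over all tested genes as well as over the members. Leaving out either refed HRD1Alb replicate raised the calls in both genotypes, and such a fit has 1 sample in that group. With both left out, 23 members fell in WT, where 2597 of 14062 tested genes were called in either direction. In WT liver all member calls were lost without fasted WT replicate 1 or either refed WT replicate. All but that of Slc25a47 were also lost without fasted WT replicate 2 or either fasted HRD1Alb library. In HRD1Alb liver all member calls were lost without fasted HRD1Alb replicate 1, and all but those of Ppara and Slc25a47 without fasted HRD1Alb replicate 2. With 2 samples on each side, the smallest p of an exact permutation test is 0.333, so none is given. Fits restricted to the 4 samples of a comparison called 16 members lower in WT, where 1965 of 13406 tested genes were called in either direction. In HRD1Alb liver they called 0 members lower and 0 of 14183 tested genes.

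In refed liver, the libraries labelled HRD1Alb had less Ppara, Acsl1, Cpt1a and Acad11 mRNA and more Ucp2 mRNA than WT. These 4 members were lower and 1 was higher at an adjusted p below 0.05 (edgeR), against 4.51% of all tested genes lower and 6.57% higher. The median log2 fold change of the members was -0.21, with 27 of 38 negative, against 0.04 over all tested genes. In 17 members both HRD1Alb samples lay below both WT samples, a pattern held by 30.1% of all tested genes. The genotype comparisons use the same samples as the refeeding comparisons, so their values are given side by side only.

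**Figure D3:**
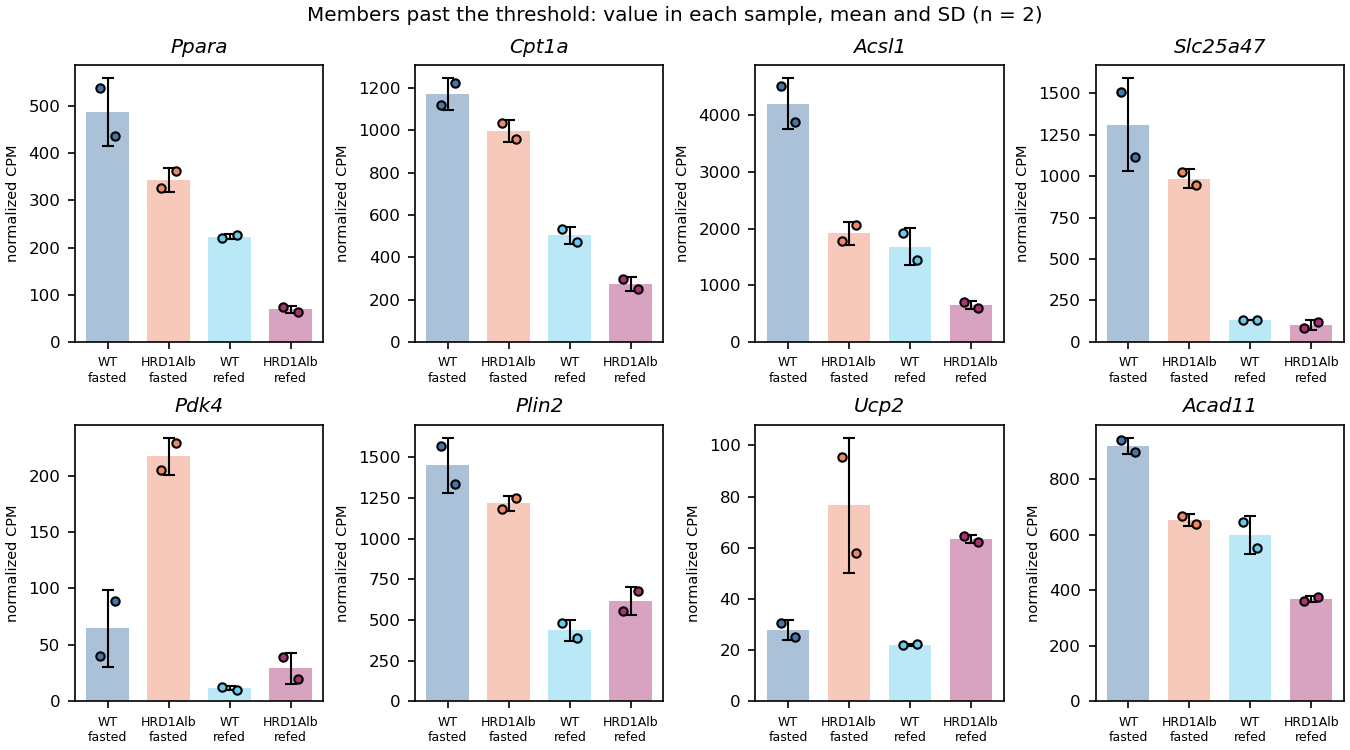
Normalized CPM of 8 members past the threshold in at least 1 comparison, with a point for each sample, a bar for the mean and an error bar for the SD (n = 2). Ppara and Cpt1a step down from fasted WT to refed HRD1Alb liver, Ucp2 is above WT in all 4 HRD1Alb samples, and Slc25a47 falls to between 82.0 and 134 CPM in the refed samples.

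The mean of Ppara was 223 CPM in refed WT (SD 5.14, n = 2) against 69.2 CPM in refed HRD1Alb liver (SD 7.68, n = 2), a log2 fold change of -1.69 ± 0.18 (SE, adjusted p = 0.00906, edgeR), or 3.23-fold lower. It was -1.81 without refed HRD1Alb replicate 1 and -1.59 without replicate 2. Acsl1 was lower by 1.37 ± 0.21 on the log2 scale (adjusted p = 0.0154), with values of -1.48 and -1.28 without replicates 1 and 2. Cpt1a was lower at -0.88 ± 0.17 (adjusted p = 0.0271), with -1.01 and -0.77 without replicates 1 and 2. Acad11 was lower at -0.70 ± 0.16 (adjusted p = 0.0384), with -0.68 and -0.73. The Cpt1a and Acad11 calls were lost when any 1 of the 4 fasted or the 2 refed WT libraries was left out, and those of Ppara, Acsl1 and Ucp2 when either refed WT library was. For each of these 4 genes every refed HRD1Alb sample lay below every refed WT sample.

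Ucp2 had 30.6 and 25.2 CPM in fasted WT, 95.3 and 58.0 CPM in fasted HRD1Alb, 21.8 and 22.3 CPM in refed WT and 64.6 and 62.3 CPM in refed HRD1Alb samples. All 4 HRD1Alb samples were above all 4 WT samples. Relative to WT, the log2 fold change was 1.46 ± 0.25 when fasted (adjusted p = 0.0488) and 1.52 ± 0.25 when refed (adjusted p = 0.0172), the latter being 1.49 and 1.55 without refed HRD1Alb replicates 1 and 2. Macrophages express Ucp2 too, and macrophage markers were higher with it. The summed level of 8 Kupffer cell and macrophage markers was 116.5 and 106 CPM in fasted WT, 366 and 267 CPM in fasted HRD1Alb, 119 and 121 CPM in refed WT and 267 and 537 CPM in refed HRD1Alb samples. All 8 were higher in HRD1Alb in both feeding states, 1 of them (Cd68) past the threshold in fasted and 7 in refed liver, and 0 of the 8 were at 0 in any library. Their part in the Ucp2 result was not tested.

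Pdk4 and Plin2 also had both refed HRD1Alb samples above both WT samples, at 1.35 (adjusted p = 0.0842) and 0.50 (adjusted p = 0.126), without passing the test. Slc22a5, Crat, Etfdh and Decr2 had both below, at -0.70, -0.39, -0.55 and -0.52, with adjusted p between 0.0585 and 0.182. The summed hepatocyte markers given at the start were also lower in refed HRD1Alb liver, with 8 of 9 markers lower and 1 of them, Apob, past the threshold at -1.24. All 7 stellate cell markers were higher in refed HRD1Alb liver, 3 of them past the threshold. All 12 male-biased liver genes were lower in both feeding states, 9 of them past the threshold in refed and 7 in fasted liver. Of 11 tested female-biased liver genes, 10 were higher in refed and 9 in fasted liver, 3 past the threshold in each state. The part of these shifts in the members' values was not tested. Among sex chromosome genes, Xist was at most 0.508 CPM in any library. The Y-linked Ddx3y, Eif2s3y, Kdm5d and Uty were at least 55.2, 60.9, 5.06 and 5.875 CPM in every library.

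For 18 of the 38 members the refed WT and HRD1Alb groups overlapped, most often with the HRD1Alb replicates on either side of WT. Replicate 2 exceeded replicate 1 in 27 of 38 members and was at least 2-fold apart from it in 5. The log2 ratio of replicate 2 over replicate 1 ran from -1.77 (Pex11a) to 1.75 (Fabp1), and fell with exon length across the members (Spearman's rho = -0.61, n = 38 genes of the same libraries, a description). The rho was between -0.21 and 0.21 in the other 3 groups. Etfb, with 0.893 kb of exon, had 392 and 1098 CPM, and Acaa1a, with 1.76 kb, had 224 and 536 CPM. Leaving out 1 refed library leaves its group with 1 sample, and the calls then moved over all tested genes as well as over the members. They rose without either refed HRD1Alb replicate and fell without either refed WT replicate, so these moves are not particular to the members. A correction for exon length gave 12 lower members, and called 2628 of 12968 tested genes in either direction. The main fit called 1588 of 14328. A fit of the 4 refed samples alone called 0 members in either direction, and 0 of 13835 tested genes.

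**Figure D4:**
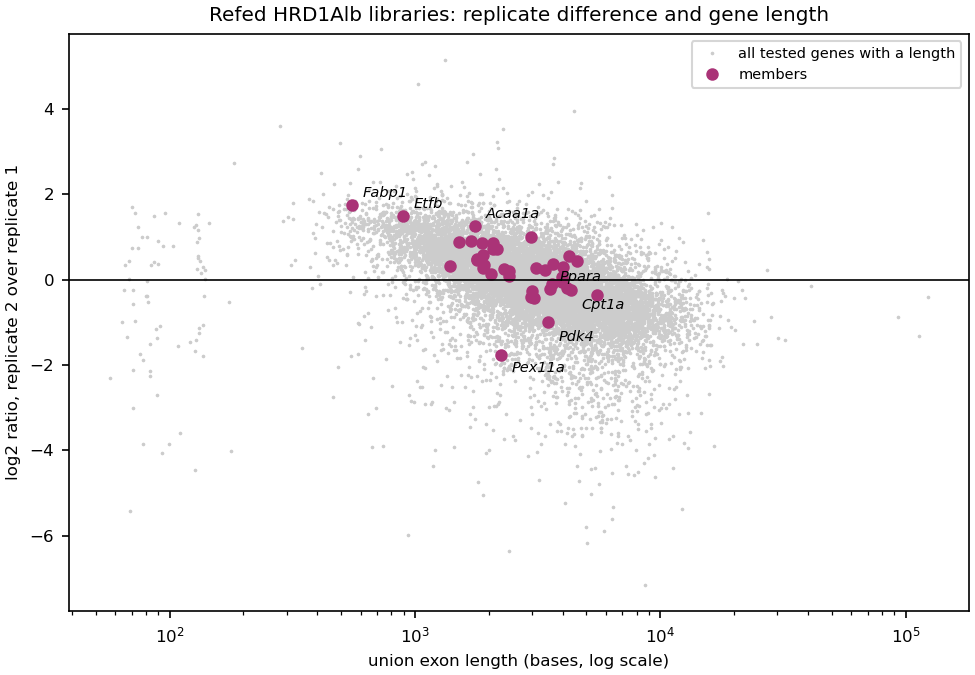
Log2 ratio of refed HRD1Alb replicate 2 over replicate 1 against union exon length in bases (log axis), with grey points for tested genes and coloured points for the 38 members. Short members such as Fabp1 (1.75) and Etfb lie above 0, and Pdk4 and Pex11a (-1.77) lie below.

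In fasted liver most members had a small negative log2 fold change in HRD1Alb against WT, and only Ucp2 passed the test. Of 38 members 1 was higher and 0 were lower (edgeR, adjusted p below 0.05), against 0.789% higher and 0.342% lower of all tested genes. At an unadjusted p below 0.05, 5 members were lower and 2 higher, 7 of 38, near the share of all tested genes (2606 of 14328, either direction). DESeq2 called 2 members lower and 2 higher, and 1094 of 14328 tested genes in either direction. By limma-voom 0 members were lower and 1 was higher, and 177 of 14328 tested genes were called in either direction. The median log2 fold change was -0.25, with 33 of 38 negative, against -0.02 over all tested genes. In 28 members both HRD1Alb samples lay below both WT samples, a pattern held by 34.2% of all tested genes.

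Acsl1 came closest among the lower genes, at -1.13 ± 0.21 (adjusted p = 0.0572), followed by Acad11 at -0.49 (adjusted p = 0.173), Acaa1b at -0.90 (adjusted p = 0.189) and Ppara at -0.50 (adjusted p = 0.196). Fabp1 was at -0.95 ± 0.48 (adjusted p = 0.357). Cpt1a, Acadm, Hadha and Acat1 lay between -0.29 and -0.18, and Bdh1 was at 0.05. Pdk4 went the other way, at 1.75 ± 0.44 (adjusted p = 0.104), with both HRD1Alb samples above both WT samples.

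**Figure D5:**
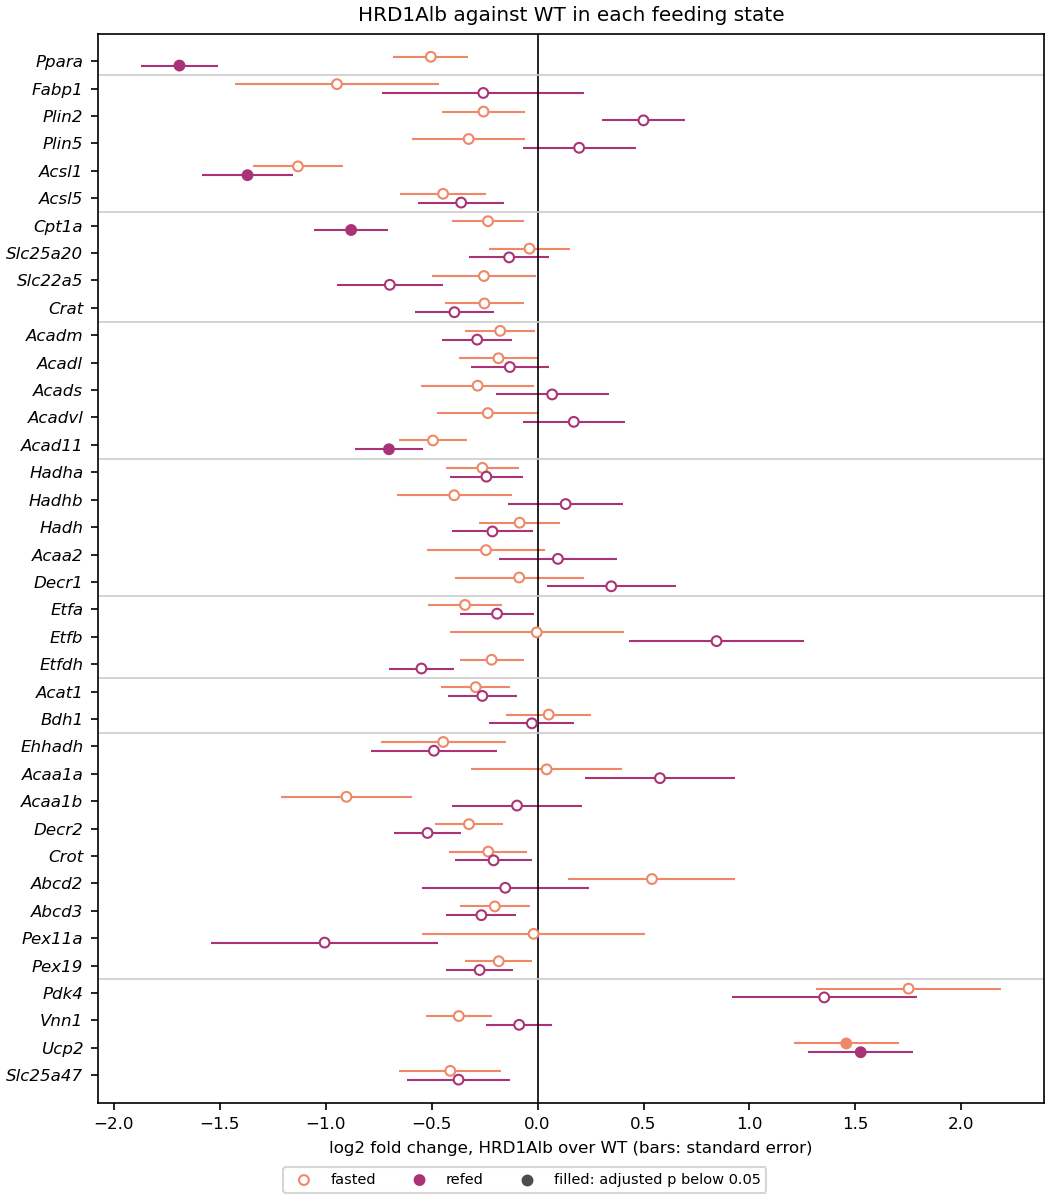
Log2 fold change of HRD1Alb over WT for each gene in fasted and refed liver, with bars for the standard error and filled points for an adjusted p below 0.05. Only Ucp2 is filled in both states, Ppara, Acsl1, Cpt1a and Acad11 are filled in refed liver, and most other points lie a little left of 0.

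The count in fasted liver moved when libraries outside the comparison were left out. With both refed HRD1Alb libraries left out, 8 members were lower, namely Fabp1, Acaa1b, Acsl1, Acsl5, Acad11, Hadhb, Ppara and Vnn1, and 2 were higher, Ucp2 and Pdk4. Over all tested genes, 3238 of 14062 were called in that fit, in either direction. Leaving out only 1 of the 2 libraries raised the calls as well, over the members and over all tested genes. The Ucp2 call was lost when any of the 4 fasted or the 2 refed WT libraries was left out. All 9 hepatocyte markers were lower in fasted HRD1Alb liver too, with 0 past the threshold, and their part in the members' median was not tested.

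The interaction asks whether refeeding changed a gene by a different amount in HRD1Alb than in WT liver. By edgeR 0 members passed in either direction, and 0% of all tested genes passed. At an unadjusted p below 0.05, 1 member was higher and 2 lower, 3 of 38, against 1180 of 14328 tested genes in either direction. DESeq2 called 1 member lower, Ppara, and 105 of 14328 tested genes in either direction. By limma-voom 0 members and 0 tested genes were called. Ppara had the smallest p of the members, with an extra change of -1.19 ± 0.25 on refeeding in HRD1Alb liver (adjusted p = 0.578, edgeR). Plin2 followed at 0.75 ± 0.28 (adjusted p = 0.598) and Cpt1a at -0.65 ± 0.24 (adjusted p = 0.598). The Ppara value was -1.31 without refed HRD1Alb replicate 1 and -1.08 without replicate 2. Leaving out either of these libraries raised the interaction calls over all tested genes as well as over the members.

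Of 97 other genes of the pathway taken from a list, 95 were in the files and 92 were tested. Cpt2, the inner membrane partner of CPT1A, was between 209.8 and 396 CPM in all samples and passed in no comparison.

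In fasted HRD1Alb liver 4 of the 92 (4.35%) were higher than WT and 1 (1.09%) was lower, against 0.789% and 0.342% of all tested genes. Fgf21, which encodes a hormone that fasting liver releases, had 14.1 and 14.6 CPM in fasted WT, 53.2 and 59.4 CPM in fasted HRD1Alb, 1.53 and 2.21 CPM in refed WT and 25.6 and 21.9 CPM in refed HRD1Alb samples. It was higher in HRD1Alb by 1.97 ± 0.21 in fasted (adjusted p = 0.0173) and 3.67 ± 0.23 in refed liver (adjusted p = 0.00173), and fell on refeeding by 2.94 in WT and 1.24 in HRD1Alb liver. Krt23, a keratin gene listed as a PPARA target, was higher by 2.75 ± 0.23 in fasted (adjusted p = 0.0138) and 3.41 ± 0.25 in refed liver (adjusted p = 0.00295). Cd36, a fatty acid importer, had 71.6 and 84.9 CPM in fasted WT and 437 and 339.7 CPM in fasted HRD1Alb samples, and was higher by 2.31 ± 0.23 (adjusted p = 0.0155) there and by 1.26 ± 0.22 in refed liver (adjusted p = 0.0207). Cd36 is also made by macrophages and endothelial cells, and the part of the higher Kupffer cell markers given above was not tested. Hilpda, a droplet protein that restrains lipolysis, was the other higher gene, at 1.60, and was picked after its values were seen.

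Scp2, the peroxisomal thiolase and sterol carrier of branched-chain and bile acid oxidation, was the lower gene. It had 3274 and 3497 CPM in fasted WT, 1117 and 1152 CPM in fasted HRD1Alb, 3072 and 2958 CPM in refed WT and 771 and 1118 CPM in refed HRD1Alb samples. HRD1Alb and WT samples did not overlap, and the log2 fold change was -1.58 ± 0.21 in fasted (adjusted p = 0.0312) and -1.67 ± 0.22 in refed liver (adjusted p = 0.0116). In refed liver 6 of the 92 (6.52%) were higher, near the 6.57% of all tested genes, and 10 (10.9%) were lower, against 4.51%. Of the 10 lower genes, 6 belong to the 22 of peroxisomal oxidation. With either refed HRD1Alb replicate left out, the calls rose over all tested genes as well as over the 92. Without replicate 1, and then without replicate 2 instead, the log2 fold changes were 3.55 and 3.77 for Fgf21 and 3.49 and 3.31 for Krt23. They were 1.05 and 1.43 for Cd36 and -1.44 and -1.97 for Scp2.

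On refeeding, 8 of the 92 (8.70%) fell in WT liver, against 1.32% of all tested genes, and 0 rose, against 1.09%. In HRD1Alb liver 15 (16.3%) fell, against 4.82%, and 3 (3.26%) rose, below the 5.14% of all tested genes. With either refed HRD1Alb replicate left out, the refeeding calls among the 92 rose in both genotypes, as did those between genotypes in fasted liver. The calls over all tested genes rose as well. Angptl4, an inhibitor of lipoprotein lipase made in fasting, had 282 and 200.1 CPM in fasted WT, 20.3 and 20.8 CPM in refed WT, 347 and 292 CPM in fasted HRD1Alb and 60.4 and 69.2 CPM in refed HRD1Alb samples. It fell by 3.55 on the log2 scale in WT (adjusted p = 0.00488) and by 2.30 in HRD1Alb liver (adjusted p = 0.00435). Pxmp4, a peroxisomal membrane protein gene, fell by 1.41 in WT (adjusted p = 0.0186) and 1.81 in HRD1Alb liver (adjusted p = 0.00445), and Txnip, a thioredoxin-binding protein gene, by 2.72 (adjusted p = 0.0173) and 3.23 (adjusted p = 0.0047). The 3 that rose in HRD1Alb liver, picked after their values were seen, were Nudt7 and Slc25a17 of the peroxisome, at 1.60 and 0.94, and the ketone body transporter gene Slc16a6, at 1.35. Leaving out refed HRD1Alb replicate 1 and then replicate 2 instead, the HRD1Alb values were -1.37 and -1.14 for Fgf21, -2.21 and -2.40 for Angptl4, -1.87 and -1.76 for Pxmp4 and -3.25 and -3.21 for Txnip. They were 2.03 and 0.98 for Nudt7, 0.78 and 1.08 for Slc25a17 and 0.98 and 1.64 for Slc16a6. Of the 18 calls made with all libraries in HRD1Alb liver, that of Ppargc1a was lost in both cases.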

How the data were processed

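Liver RNA-seq counts of 8 samples were used. The authors sequenced cDNA on an Illumina NextSeq with 1 lane for each sample and deposited whole-number read counts per gene symbol, 1 file for each sample, with no normalization. Their paper names ERANGE for counting and limma for testing, while the submitters' processing notes name cutadapt, STAR, HTSeq and DESeq2 with build mm10, without versions. A protocol label describes refeeding for every sample, so groups were taken from titles and treatment labels.

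Counts were analysed with edgeR 4.0.16 in R 4.3.3. Genes were kept by filterByExpr (minimum count 10, minimum total 15), scaled by TMM, and fitted together by robust quasi-likelihood, each of the 4 groups having its own mean and no covariate, as the study's methods give none. The contrasts were HRD1Alb against WT fasted and refed, refeeding in each genotype, and their interaction. p-values were adjusted by Benjamini-Hochberg over the 14328 genes tested, with a threshold of 0.05. Standard errors are the log2 fold change over the square root of F. Levels per kb used union exon lengths of GENCODE M21 (GRCm38), which 89.8% of symbols matched.

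The members and the list of pathway genes were chosen with earlier results of these data known. So were the hepatocyte, Kupffer cell, stellate cell, adipocyte, sex chromosome, female-biased and male-biased marker genes. By rule, per-sample values are given for every member called in any contrast and for 10 set members, and from the pathway list for Cpt2, with at most 3 further genes of smallest p per contrast. Of the pathway genes, 2 are not reported here and are left out of its counts. The tests were also run on simulated counts, with the same spread in every group and no effect of gene length. That setting differs from the refed HRD1Alb pair, so the simulation is no check on calls that rest on it. The alternatives were RLE scaling, DESeq2 1.42.0, limma-voom 3.58.1, other filters, a replicate block, a length correction, fits of the 4 samples compared and leaving out each sample. Leaving out both refed HRD1Alb libraries was added after seeing the data.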

Additional observations from a re-analysis of the deposited data

Results flagged for a closer look

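Plin2, the droplet coat gene, had both HRD1Alb samples below both WT samples in fasted liver and both above in refed liver. This opposite order between the feeding states is what singled it out. The interaction was 0.75 ± 0.28 on the log2 scale (edgeR, adjusted p = 0.598), and did not pass the test.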

How the results depend on the processing

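No alternative moved the median of all genes by over 0.1 on the log2 scale, and the counts of members called were the values that moved. For HRD1Alb against WT in fasted liver, the 1 higher member became 0 under RLE scaling or the replicate block and 2 under DESeq2, the length correction or with both refed HRD1Alb libraries left out (added after seeing the data). The 0 lower members became 2 under DESeq2 or the replicate block with length correction, 1 without the filter, 3 under the length correction, 4 with only the 4 samples compared and 8 with both refed HRD1Alb libraries left out. In refed liver the 1 higher member became 2 under DESeq2 and 0 with only the 4 samples compared, and the 4 lower became 12 under the length correction, with or without the replicate block, and 0 with only the 4 samples. On refeeding, the 9 lower in WT became 16 with only the 4 samples and 23 with both refed HRD1Alb libraries left out, and the 14 lower in HRD1Alb liver became 0 with only the 4 samples. The interaction's 0 lower became 1 under DESeq2.

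Leaving out 1 library at a time gave 0 to 2 higher and 0 to 9 lower members in fasted liver, 0 to 10 higher and 0 to 14 lower in refed liver, 0 to 23 lower on refeeding in WT, 0 to 9 higher and 0 to 24 lower on refeeding in HRD1Alb liver, and 0 to 11 higher and 0 to 3 lower for the interaction. In each of these ranges the highest count came from leaving out a refed HRD1Alb library. Leaving out such a library also raised the calls over all tested genes in every contrast. Over the 3268 log2 fold changes recomputed for single members, 155 lost the call, 197 gained one, 139 changed sign with no call on either side, and 4 changed sign with a call. Those 4 were Acads in refed HRD1Alb against WT (-0.43 without refed HRD1Alb replicate 2 and 0.43 without replicate 1) and, on refeeding in HRD1Alb liver, Acaa1a (-0.42 and 0.84), Decr1 (-0.59 and 0.42) and Hadhb (-0.45 and 0.41). The cause was not tested.

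Replicate numbers do not pair the samples. Deviations of same-numbered samples correlated at r = 0.0161 to 0.179 over 6 pairs of groups, all above 0, which is only a hint. With the replicate block the calls of Ucp2 in fasted liver (adjusted p = 0.0547), Pdk4 on refeeding in WT (0.0609) and Decr2 on refeeding in HRD1Alb liver (0.0557) were lost, and Ehhadh gained one on refeeding in WT (0.0467) and HRD1Alb liver (0.0234), so the counts on refeeding stayed at 9 and 14. The block changed no other member's call. The Pdk4 call in WT was also lost under limma-voom and with only the 4 samples compared, and the Decr2 call without the filter. Counts over all genes in the order fasted genotype, refed genotype, refeeding in WT, refeeding in HRD1Alb and interaction were 162, 1588, 345, 1428 and 0, and 1094, 3190, 1086, 2921 and 105 under DESeq2. The length correction gave 819, 2628 and 825 for the first 3, and 679, 2506 and 730 with the block. With only the 4 samples compared, the first 4 counts were 2208, 0, 1965 and 0. With both refed HRD1Alb libraries left out, fasted genotype and refeeding in WT gave 3238 and 2597. Without the filter the fasted genotype count was 273 and the interaction count 2. Every member had at least 391 counts in each library.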
